A study of Mus musculus with 7 samples.

Results

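The transcripts of the mitochondrial respiratory chain and ATP synthase were followed in follicular dendritic cells (FDCs) with and without the neurotrophin receptor gene Ngfr. The rule goes by symbol: every gene whose symbol begins with mt-, Nduf, Uqcr, Cox4 to Cox8 or Atp5, and the 4 genes Sdha, Sdhb, Sdhc and Sdhd. The rule found 105 of 21176 genes. Of these, 15 are encoded in mitochondrial DNA (13 mRNAs and 2 rRNAs), 80 are nuclear genes for subunits of complexes I to V, and 10 are nuclear genes for factors named after those complexes but not part of them (Ndufaf genes, Atp5s and Atp5sl).

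FDCs are stromal cells that display antigen to B cells in lymphoid follicles, and Ngfr encodes the low-affinity neurotrophin receptor p75. RNA came from cells isolated by flow cytometry from the popliteal lymph nodes of male mice, 8 to 12 weeks old and not immunized, and each of the 7 samples pooled nodes of several animals. The groups were wild type (WT, n = 4 pools) and Ngfr KO (n = 3 pools). The strain, the knockout allele and the cells in which Ngfr was lost are not given in the sources used here, and a pool hides the spread between animals.

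Complexes I to IV pass electrons from NADH and succinate to oxygen and, except for complex II, pump protons across the inner mitochondrial membrane. Complex V, the ATP synthase, lets the protons flow back and makes ATP. Mitochondrial DNA encodes a few hydrophobic subunits of complexes I, III, IV and V and the rRNAs of the mitochondrial ribosome, while all of complex II and most other subunits come from nuclear genes, so each large complex needs both genomes.

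Values are deposited TMM normalised values, that is read counts multiplied by 1 factor per sample, and levels of different genes are compared only per kb of the principal transcript. Log2 changes are Ngfr KO minus WT on the log2(value + 1) scale, which understates changes of genes with low values. A gene was called when the Benjamini-Hochberg adjusted p of limma over 8326 tested genes was under 0.05. Libraries held 17244925 to 21538400 reads. Ngfr itself was at 0.377, 0.677, 1.30 and 1.14 in the WT samples and at 0.305, 0.353 and 0.184 in the Ngfr KO samples, and reads from outside a deleted part would remain, so its level does not check the labels. For the FDC label, the summed value of 18 FDC markers ranged from 1865 to 5222 among WT samples and from 8188 to 10724 among Ngfr KO samples. Of the 18, 17 were called higher, against 18.3% of all tested genes, and this difference does not check the label. Endothelial markers were also present, with a summed value between 168 and 218 in WT and between 37.0 and 69.3 in Ngfr KO. Of 15 tested, 15 were called lower, against 15.8% of all tested genes. In WT and then Ngfr KO, summed B-cell markers (12 listed) were at 20.2 to 30.6 and 26.2 to 42.7. T-cell markers (10) were at 3.11 to 12.5 and 3.80 to 11.2, and myeloid markers (11 of 12 listed) at 3.58 to 10.2 and 10.1 to 47.7. Reticular and pericyte markers (12) were at 65.6 to 199 and 133 to 186. Limma called 1 of 6 tested B-cell, 0 of 5 T-cell, 2 of 3 myeloid and 3 of 8 reticular and pericyte markers higher, and 0 lower. The part of these cell types in the results was not tested. In bulk samples fewer cells of a type and less RNA per cell cannot be told apart. Ngfr KO replicate 3 stood apart from the other Ngfr KO samples in the genes described here, and results are given with and without it.

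Reads of both mitochondrial rRNAs fell in Ngfr KO. How the library method captures these rRNAs was not tested, so their values describe reads and not amounts of rRNA. mt-Rnr2 (chrM:1094-2675, plus strand), the rRNA of the large subunit of the mitochondrial ribosome, was at 1294, 1319.9, 1433 and 1032 in WT and 551, 486 and 861 in Ngfr KO. No Ngfr KO sample reached the lowest WT sample, and the mean was 2.01-fold higher in WT, with a WT mean of 1269.8 ± 169.5 (SD, n = 4) against an Ngfr KO mean of 633 ± 201 (SD, n = 3) (log2 change -1.04, SE 0.31, limma adjusted p = 0.0244). mt-Rnr1 (chrM:70-1024, plus strand), the small-subunit rRNA, was at 589, 502, 390.0 and 213 in WT and 168, 163 and 265 in Ngfr KO. WT replicate 4, the lowest WT sample, lay below Ngfr KO replicate 3, so the groups overlapped (log2 change -1.03, SE 0.35, limma adjusted p = 0.0406). By edgeR mt-Rnr1 was not called (adjusted p = 0.0561) and mt-Rnr2 was (adjusted p = 0.0214). Of 22 other analyses that were run, 15 called mt-Rnr1 and 16 called mt-Rnr2. Over both rRNAs, the share of all reads had a WT mean of 2.41% ± 0.41 (SD, n = 4) against an Ngfr KO mean of 1.06% ± 0.24 (SD, n = 3), and the highest Ngfr KO sample (1.34%) lay below the lowest WT sample (1.84%).

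The 13 mitochondrial mRNAs changed unevenly, and 2 of them passed the test. Of all 15 mitochondrially encoded genes, 4 were called lower (both rRNAs, mt-Nd3 and mt-Nd6) and 0 higher, against 15.8% of all tested genes called lower and 18.3% called higher. By limma at an unadjusted p under 0.05, 6 were lower and 0 higher, and edgeR and DESeq2 on the recovered reads called 2 and 3 lower and 0 higher, against 6.55% and 8.99% of all genes called lower and 8.67% and 9.86% called higher by these tools. The median log2 change of the 15 was -0.55, beside 0.02 over all tested genes, and all 15 changes were below 0 in the limma test of all samples. With each sample's trend with length and GC content removed 4 were above 0 (mt-Nd1 0.026, mt-Nd4l 0.16, mt-Cytb 0.021 and mt-Atp8 0.29). The change of mt-Cytb was also above 0 with median ratio scaling (0.037), by edgeR (0.036) and by DESeq2 (0.035), and those of mt-Nd1 and mt-Cytb reached 0.12 and 0.16 with single samples left out. In 2 of the 15 all 3 Ngfr KO values were under the lowest WT value, which held for 18.3% of all tested genes. Without Ngfr KO replicate 3, 10 of the 15 were called lower with a median of -0.80, where 17.1% of all tested genes were lower. The count was 2 without WT replicate 1, 1 without WT replicate 2, WT replicate 3, Ngfr KO replicate 1 or Ngfr KO replicate 2, and 3 without WT replicate 4. Over all tested genes 1318 were called lower with all samples, and 833, 928, 1319 and 1205 without WT replicates 1, 2, 3 and 4. Without Ngfr KO replicates 1 and 2 this number was 894 and 781.

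**Figure D1:**
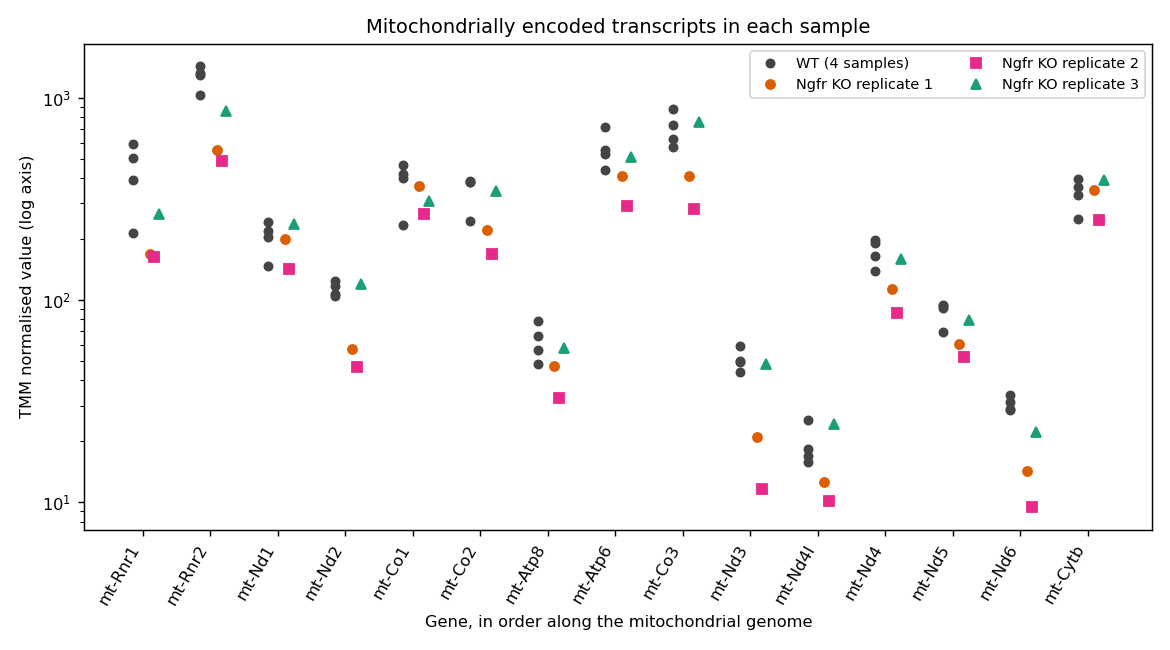
TMM normalised values (log axis) of the 15 mitochondrially encoded genes in each of 4 WT and 3 Ngfr KO samples, in order along the mitochondrial genome; each point is a sample. Ngfr KO replicate 2 is the lowest sample for 14 of the 15 genes, and replicate 3 lies among the WT samples for most mRNAs.

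Complex I holds 7 mitochondrial mRNAs, all for membrane-arm subunits that take part in proton pumping. mt-Nd6 (chrM:13552-14070), the protein gene on the minus strand, was at 31.1, 28.5, 33.8 and 29.0 in WT and 14.3, 9.41 and 22.3 in Ngfr KO. All Ngfr KO samples lay below all WT samples (log2 change -1.03, SE 0.24, limma adjusted p = 0.00783), and it was called in 22 of 22 other analyses that were run. mt-Nd3 (chrM:9459-9806) was at 44.1, 49.8, 59.3 and 49.3 in WT and 21.0, 11.6 and 48.3 in Ngfr KO. Replicates 1 and 2 of Ngfr KO lay far below the WT range, while replicate 3 lay inside it (log2 change -1.10, SE 0.35, limma adjusted p = 0.0314), and edgeR did not call it (adjusted p = 0.141). mt-Nd2 showed the same order, with 107, 117, 124 and 104 in WT and 57.1, 46.3 and 119.6 in Ngfr KO (log2 change -0.72, SE 0.29, limma adjusted p = 0.0736). mt-Nd4 and mt-Nd5 had log2 changes of -0.57 and -0.45 (limma adjusted p = 0.104 and 0.128), and mt-Nd4l one of -0.34 (adjusted p = 0.34). mt-Nd1 was at 204, 219.8, 243 and 147 in WT and 199, 141 and 236 in Ngfr KO, with fully overlapping groups (log2 change -0.09, SE 0.27, limma adjusted p = 0.813).

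mt-Cytb, cytochrome b and the mitochondrial part of complex III, was at 331, 361, 398 and 252 in WT and 350.2, 247 and 392 in Ngfr KO. Its groups covered the same range (log2 change -0.03, SE 0.28, limma adjusted p = 0.939). Of the 3 complex IV mRNAs, which encode the catalytic core of cytochrome c oxidase, mt-Co3 was at 623, 881, 573 and 729 in WT and 408, 281 and 759 in Ngfr KO and mt-Co2 at 382, 387, 385 and 245 in WT and 221, 169 and 344 in Ngfr KO, so that replicates 1 and 2 of Ngfr KO lay below every WT sample and replicate 3 did not. Neither was called (mt-Co3 log2 change -0.64, limma adjusted p = 0.171; mt-Co2 log2 change -0.55, adjusted p = 0.172). mt-Co1 was at 466, 402, 418 and 235 in WT and 366, 265 and 309.7 in Ngfr KO, and its groups overlapped (log2 change -0.24, SE 0.29, limma adjusted p = 0.538). The complex V mRNAs mt-Atp6 and mt-Atp8, which encode subunits of the membrane part of the synthase, had log2 changes of -0.49 and -0.45 (limma adjusted p = 0.214 and 0.168).

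Several of these genes share sequence, which limits how reads can be told apart. mt-Atp8 and mt-Atp6 overlap by 43 bases on the same strand, mt-Nd4l and mt-Nd4 by 7, and mt-Nd5 and mt-Nd6 by 14 on opposite strands, and the library kit does not mark strand. The whole coding sequence of mt-Atp8 (GRCm38 chrM:7766-7969, plus strand, 204 bases) is printed to show the overlap, with the 43 bases that are also the start of mt-Atp6 in capitals.
mt-Atp8: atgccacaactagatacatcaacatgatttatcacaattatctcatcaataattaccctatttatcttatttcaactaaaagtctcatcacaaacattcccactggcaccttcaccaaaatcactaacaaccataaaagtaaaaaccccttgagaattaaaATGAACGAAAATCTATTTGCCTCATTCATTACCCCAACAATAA
In addition, 783 bases of mt-Co3 (99.9% of its length) are identical to the nuclear pseudogene Gm28437, and 480 bases of mt-Co1 (31.1%) are 99.8% identical to Gm29216. Gm28437 was at 343, 144, 579 and 5.50 in WT and 334, 242 and 194 in Ngfr KO, so its share of the pair ranged widely among WT samples. Gm29216 was at 337, 312, 307 and 247 in WT and 168, 142 and 223 in Ngfr KO and was called lower (log2 change -0.77, limma adjusted p = 0.0336). Summed with their copies, mt-Co1 had a log2 change of -0.46 (limma adjusted p = 0.222) and mt-Co3 one of -0.41 (adjusted p = 0.312), so neither was called. How reads were assigned between the pairs is not given in the sources used here, and both genes are uncertain.

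Within the values of the mitochondrial transcripts the composition shifted. The summed rRNA value averaged 0.55 ± 0.05 times the summed mRNA value over the 4 WT samples (SD) and 0.36 ± 0.04 times over the 3 Ngfr KO samples (SD). The ratio was 0.61, 0.55, 0.54 and 0.50 in WT and 0.32, 0.40 and 0.37 in Ngfr KO, so the groups did not overlap, replicate 3 of Ngfr KO included. As a share of the mitochondrial value (mean ± SD in WT, then in Ngfr KO), mt-Rnr2 made up 26.7% ± 1.04 and 20.0% ± 1.49, mt-Cytb 7.02% ± 0.48 and 10.6% ± 1.17, and mt-Nd1 4.25% ± 0.33 and 6.15% ± 0.50. For mt-Rnr2, mt-Cytb and mt-Nd1 these shares did not overlap between groups. Shares of a fixed total depend on each other, and no test was made of them.

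Among the 80 nuclear subunit genes, 75 passed the filter on low values, which asks for a value of at least 1 in 3 samples; Cox4i2, Cox6b2, Cox7a1, Cox8b and Ndufa4l2 did not. Of the 75, 5 were called lower and 7 higher, against 15.8% and 18.3% of all tested genes. The median log2 change was -0.27, beside 0.02 over all tested genes, with 55 changes below 0 and 20 above. The called genes differed in kind. Those that fell encode small accessory subunits (Ndufa6, Ndufb7, Ndufc1, Cox6c and Atp5k), whereas those that rose included the catalytic subunits Atp5a1 and Atp5b, the core proteins Uqcrc1 and Uqcrc2, Ndufa9, and the small membrane anchor Sdhd.

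This balance depended on single samples. The 3 Ngfr KO samples had median deviations from the WT mean of -0.44, -0.64 and 0.15 over the 75 genes (replicates 1, 2 and 3), and 51, 55 and 3 of the 75 lay below the lowest WT sample. Over all tested genes 32.2%, 36.1% and 27.6% lay below the lowest WT sample, and 34.5%, 35.8% and 37.5% above the highest. Without Ngfr KO replicate 3, 43 subunit genes were called lower and 8 higher, against 17.1% and 16.5% of all tested genes. By edgeR on all 7 samples 1 of 78 was lower (Cox6b2) and 5 higher, against 6.55% and 8.67% of all genes it tested. None of the 5 genes called lower by limma was called by edgeR. The edgeR test without Ngfr KO replicate 3 called 25 lower and 4 higher, against 5.71% and 6.99% of genes. The count called lower was 1 without WT replicate 1, 3 or 4 and 0 without WT replicate 2, Ngfr KO replicate 1 or Ngfr KO replicate 2. The count called higher was 2, 1, 9 and 6 without WT replicates 1, 2, 3 and 4. It was 1 without Ngfr KO replicate 1 and 2 without Ngfr KO replicate 2. Over all tested genes, 833 were called lower and 1037 higher without WT replicate 1, and 928 and 1090 without WT replicate 2. The numbers were 1319 and 1687 without WT replicate 3, and 1205 and 1405 without WT replicate 4. Without Ngfr KO replicate 1 they were 894 and 909, and without Ngfr KO replicate 2 they were 781 and 833. With all samples they were 1318 and 1526. Scaling moved the split as well. Quantile normalization gave 26 lower and 3 higher, against 17.3% and 16.9% of all tested genes. Median ratio scaling gave 3 and 7, where 1166 and 1712 of all 8326 tested genes were called. Scaling to the total without mitochondrial genes gave 34 and 3. The last of these moved the median of all tested genes from 0.02 to -0.11 and their calls from 1318 lower and 1526 higher to 1939 and 977, which is 35% of them.

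**Figure D2:**
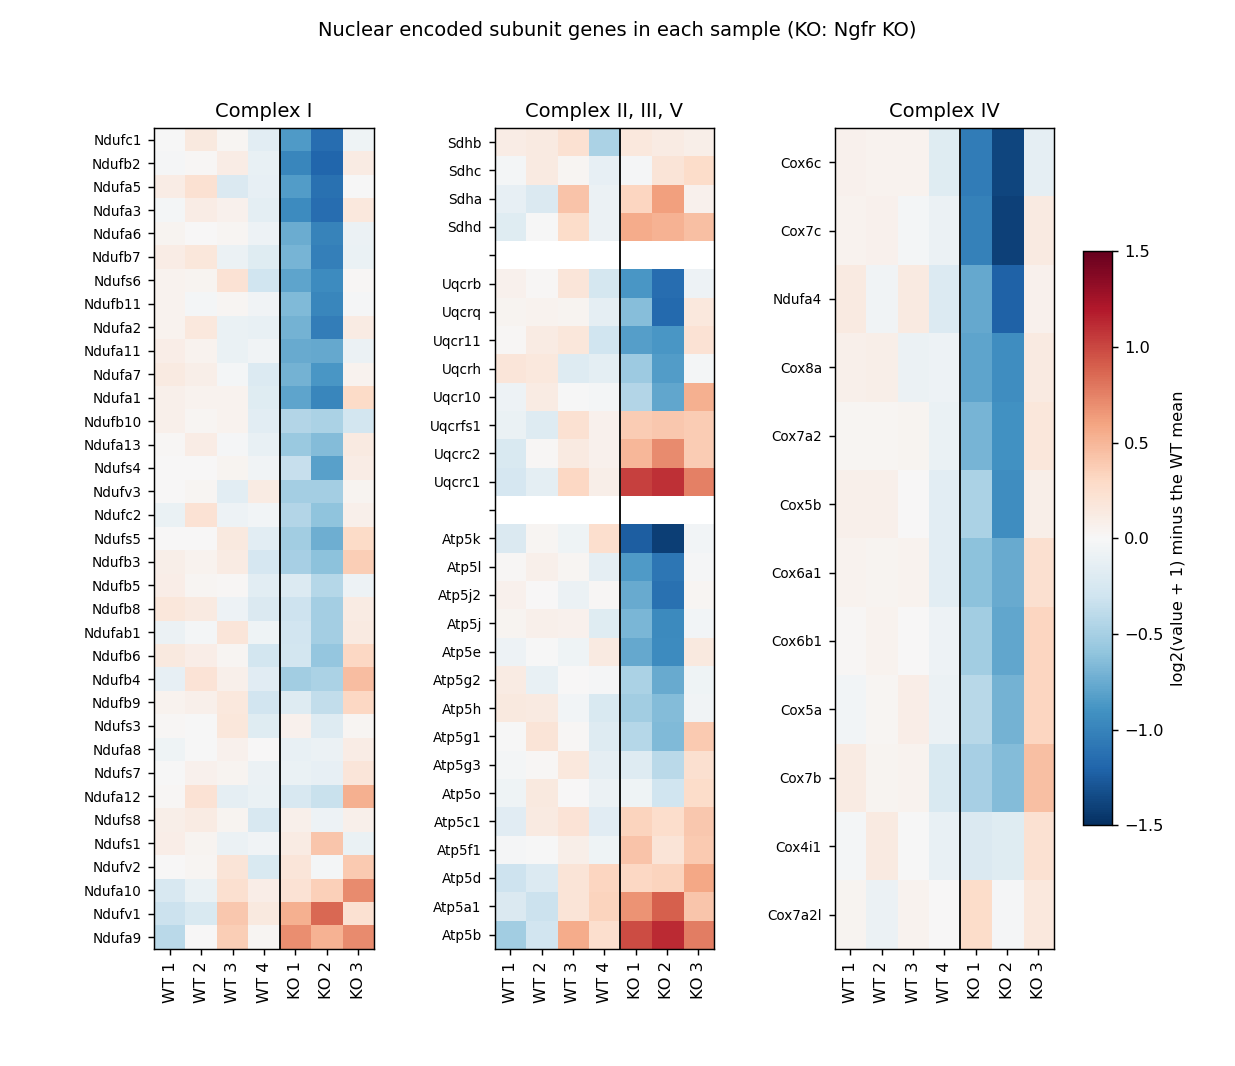
Log2(value + 1) minus the WT mean for 74 of the 75 tested nuclear subunit genes (rows, by complex and sorted by log2 change) in the 4 WT and 3 Ngfr KO samples (columns); colours end at -1.5 and 1.5. Most rows are blue in Ngfr KO replicates 1 and 2 and near white or pale red in replicate 3, while the lowest rows of complexes I, III and V are red in all 3.

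Complex I, the NADH dehydrogenase, had 36 tested nuclear subunit genes, 3 called lower and 2 higher by limma. These were smaller shares than the 15.8% and 18.3% of all tested genes, and the complex had a median log2 change of -0.28. Its 7 core subunit genes, which hold the flavin, the iron-sulphur clusters and the quinone site, had a median of 0.15. Ndufv1, which binds NADH and flavin, had a log2 change of 0.54 (limma adjusted p = 0.0653), while Ndufs1, Ndufs3 and Ndufv2 lay between -0.03 and 0.18.

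The 29 accessory subunits of complex I, which surround and stabilise the core, had a median of -0.35, with 3 called lower and 1 higher. Over all tested genes the shares were 15.8% and 18.3%. Ndufc1 was at 19.6, 21.8, 20.0 and 17.4 in WT and 10.4, 8.39 and 18.8 in Ngfr KO (log2 change -0.68, SE 0.23, limma adjusted p = 0.041). Ndufa6 was at 22.9, 22.4, 22.7 and 21.0 in WT and 12.8, 10.6 and 20.9 in Ngfr KO (log2 change -0.61, SE 0.21, limma adjusted p = 0.0433). In both, replicates 1 and 2 of Ngfr KO were the low ones, and replicate 3 was inside the WT range or just below it. Ndufb7 was at 18.5, 19.3, 16.0 and 14.9 in WT and 10.2, 7.92 and 15.8 in Ngfr KO (log2 change -0.61, SE 0.22, limma adjusted p = 0.0471). Ndufa9, which sits near the junction of the arms, went the other way at 8.40, 11.4, 15.1 and 11.6 in WT and 19.1, 16.8 and 19.4 in Ngfr KO, with no overlap (log2 change 0.64, SE 0.20, limma adjusted p = 0.0249). Ndufa1 had the highest WT level per kb among the nuclear subunits of the complex (120 per kb in WT and 91.8 in Ngfr KO) and was at 53.1, 52.4, 52.3 and 44.1 in WT and 28.6, 25.2 and 61.6 in Ngfr KO (log2 change -0.49, SE 0.28, limma adjusted p = 0.177). Of the 29, 20 were called lower and 1 higher without Ngfr KO replicate 3, against 17.1% and 16.5% of all tested genes.

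Complex II, succinate dehydrogenase, is also an enzyme of the TCA cycle and had 4 log2 changes above 0 in the limma test of all samples. Sdhb did not keep this sign: it was at -0.017 with quantile normalization, -0.047 with scaling without mitochondrial genes, -0.013 with length and GC trends removed, -0.19 with the replicate block added to that, and -0.032 with the block alone or without WT replicate 4. Sdhc was at -0.037 with array weights. Limma called 1 of the 4 higher and 0 lower (0 lower at an unadjusted p under 0.05, and 0 by edgeR or DESeq2), with a median of 0.24. Over all tested genes 18.3% were called higher and 15.8% lower. Sdhd, a membrane anchor, was at 8.98, 10.2, 12.7 and 9.58 in WT and 15.6, 15.3 and 14.4 in Ngfr KO. All Ngfr KO samples lay above all WT samples (log2 change 0.51, SE 0.17, limma adjusted p = 0.0336), and edgeR called it too (adjusted p = 0.0473). Sdha, the flavoprotein, was at 9.74, 9.10, 14.8 and 10.1 in WT and 13.6, 17.0 and 11.2 in Ngfr KO (log2 change 0.33, SE 0.20, limma adjusted p = 0.219). Sdhb, the iron-sulphur subunit and the one with the highest WT level per kb (11.6 per kb), had a log2 change of 0.12, and Sdhc, the other anchor, one of 0.15 (limma adjusted p = 0.632 and 0.432). Summed over the 4 genes, the value was 34.6, 35.9, 44.8 and 30.4 in WT and 45.7, 48.8 and 42.0 in Ngfr KO.

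In complex III, the cytochrome bc1 complex, the core and the small subunits had median changes of opposite sign. The 3 genes for the core proteins and the Rieske protein had a median log2 change of 0.53. Of these 3, 2 were called higher and 0 lower, against 18.3% and 15.8% of all tested genes. In all 3 every Ngfr KO sample lay above every WT sample, which held for 22.6% of all tested genes. Uqcrc1 was at 6.05, 6.54, 9.38 and 7.87 in WT and 16.0, 16.9 and 13.1 in Ngfr KO. The mean was 2.05-fold higher in Ngfr KO (log2 change 0.96, SE 0.18, limma adjusted p = 0.00272). Uqcrc1 was also called by edgeR (adjusted p = 0.00965), and was called in 22 of 22 other analyses that were run. Uqcrc2 was at 6.94, 8.39, 9.17 and 8.73 in WT and 12.1, 14.2 and 11.1 in Ngfr KO (log2 change 0.53, SE 0.17, limma adjusted p = 0.0276), and Uqcrfs1, the Rieske iron-sulphur protein, at 6.19, 5.75, 8.08 and 7.10 in WT and 9.10, 9.27 and 9.08 in Ngfr KO (log2 change 0.39, SE 0.16, limma adjusted p = 0.0741). The 5 small subunit genes had a median of -0.50, and limma called none (2 lower and 0 higher at an unadjusted p under 0.05, and 0 by edgeR or DESeq2). Uqcrb, which binds ubiquinone and had the highest WT level per kb among the nuclear subunits of the complex (132 per kb in WT and 84.4 in Ngfr KO), was at 72.9, 71.0, 79.5 and 58.3 in WT and 37.9, 31.2 and 66.3 in Ngfr KO (log2 change -0.70, SE 0.26, limma adjusted p = 0.0528). All 5 were called lower, and 2 of the 3 others higher, without Ngfr KO replicate 3, against 17.1% and 16.5% of all tested genes.

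Complex IV, cytochrome c oxidase, had 12 tested nuclear genes, 1 called lower and 0 higher by limma. Over all tested genes 15.8% were called lower and 18.3% higher. At an unadjusted p under 0.05 limma gave 3 of the 12 lower and 0 higher. Of 15 and 17 genes tested by edgeR and DESeq2, 1 and 2 were called lower and 0 higher. The median log2 change of the 12 was -0.41. Cox6c, a small structural subunit with the highest WT level of any nuclear subunit per kb (176 per kb in WT and 103 in Ngfr KO), was at 92.4, 91.7, 91.8 and 77.9 in WT and 42.1, 33.4 and 80.4 in Ngfr KO. Replicates 1 and 2 of Ngfr KO lay far below every WT sample, and replicate 3 lay between WT replicate 4 and the others (log2 change -0.85, SE 0.27, limma adjusted p = 0.0311). Limma without Ngfr KO replicate 3 called 10 of the 12 lower, against 17.1% of all tested genes.

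Of the complex IV isoforms, the widely expressed forms were detected at high values and the tissue-restricted forms were near 0. Cox4i1 was at 66.1, 74.3, 67.0 and 62.4 in WT and 57.6, 59.3 and 79.2 in Ngfr KO (log2 change -0.06, SE 0.20, limma adjusted p = 0.843; 0.011 with median ratio scaling), while Cox4i2, the form known from lung, stayed at or below 0.0156. Cox6a1 was at 64.6, 64.1, 64.2 and 55.6 in WT and 40.3, 36.3 and 73.5 in Ngfr KO (log2 change -0.38, SE 0.25, limma adjusted p = 0.25), and Cox6b1 at 49.8, 50.8, 49.4 and 46.4 in WT and 33.8, 28.3 and 61.4 in Ngfr KO (log2 change -0.33, SE 0.25, limma adjusted p = 0.319). Cox6b2, known from testis, was at 0.455, 0.554, 0.122 and 0.317 in WT and 0.0725, 0.0475 and 0.0480 in Ngfr KO; no Ngfr KO sample reached the lowest WT sample, and edgeR gave an adjusted p of 0.031. Cox7a2 was at 34.7, 34.6, 34.9 and 31.5 in WT and 20.5, 17.5 and 38.4 in Ngfr KO (log2 change -0.48, SE 0.24, limma adjusted p = 0.14), the related Cox7a2l, which takes part in supercomplexes, at 13.4, 12.2, 13.5 and 13.0 in WT and 15.9, 12.8 and 14.6 in Ngfr KO (log2 change 0.14, SE 0.16, limma adjusted p = 0.515; -0.034 with scaling without mitochondrial genes), and the muscle form Cox7a1 stayed at or below 0.561. Cox8a had a log2 change of -0.53 (limma adjusted p = 0.114), and its muscle form Cox8b stayed at or below 0.195. Ndufa4, now counted with complex IV, was at 65.3, 57.1, 65.5 and 51.3 in WT and 34.5, 25.1 and 62.4 in Ngfr KO (log2 change -0.64, SE 0.27, limma adjusted p = 0.0855), and Ndufa4l2 stayed at or below 0.0506.

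Complex V had 15 tested nuclear genes, 1 called lower and 2 higher, against 15.8% and 18.3% of all tested genes. The median log2 change of the 15 was -0.23. In the F1 head and central stalk, where ATP is made, the median of 5 genes was 0.41, with 2 called higher. Atp5b, the catalytic beta subunit, was at 29.0, 34.3, 62.5 and 50.1 in WT and 83.9, 92.9 and 72.5 in Ngfr KO. All Ngfr KO samples lay above all WT samples, and WT replicates 1 and 2 lay well below WT replicates 3 and 4 (log2 change 0.96, SE 0.26, limma adjusted p = 0.0162). Atp5a1, the alpha subunit, was at 17.4, 16.1, 23.5 and 25.9 in WT and 33.2, 38.7 and 27.4 in Ngfr KO, also without overlap (log2 change 0.66, SE 0.21, limma adjusted p = 0.0318); edgeR gave adjusted p = 0.0361 for Atp5b and 0.0537 for Atp5a1. Atp5c1 and Atp5d had log2 changes of 0.33 and 0.41 (limma adjusted p = 0.164 and 0.116), and the smallest F1 member, Atp5e, one of -0.52 (adjusted p = 0.109).

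The 3 genes for small membrane subunits of the synthase had a median log2 change of -0.65. Atp5k, subunit e, which helps pair synthases in the cristae, was at 15.5, 18.6, 17.3 and 21.8 in WT and 7.13, 6.22 and 17.6 in Ngfr KO. Replicates 1 and 2 of Ngfr KO lay far below the lowest WT sample, and replicate 3 lay within WT (log2 change -0.90, SE 0.28, limma adjusted p = 0.0292). Atp5l, with the highest WT level per kb among the nuclear subunits of the complex (107 per kb in WT and 71.3 in Ngfr KO), was at 59.2, 61.6, 59.7 and 53.1 in WT and 31.9, 26.9 and 57.5 in Ngfr KO (log2 change -0.65, SE 0.25, limma adjusted p = 0.0583). The c-ring genes Atp5g1, Atp5g2 and Atp5g3, which encode the same mature protein, had log2 changes of -0.23, -0.43 and -0.12 (limma adjusted p = 0.461, 0.0833 and 0.669). Atp5g2 is uncertain, because all 438 bases of its coding sequence are identical to the pseudogene Gm10175, whose mean value was 71.1% of that of Atp5g2. Copies also reached 24.4%, 23.8% and 15.8% of the mean value of Cox7c, Ndufb6 and Ndufb5. In the peripheral stalk, Atp5f1 had a log2 change of 0.34 and Atp5j one of -0.56 (limma adjusted p = 0.131 and 0.0752).

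**Figure D3:**
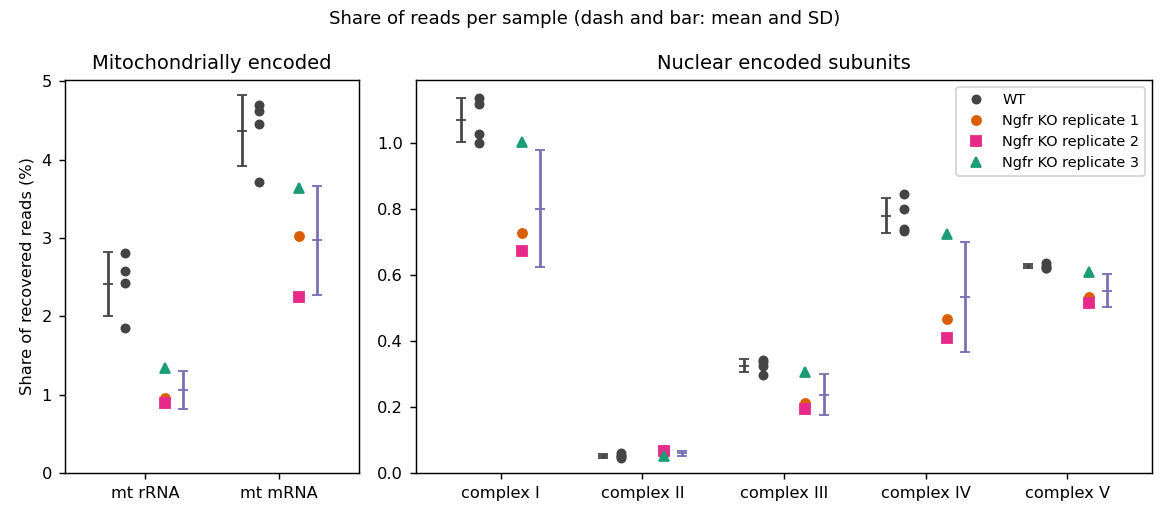
Share of recovered reads (%) per sample for the mitochondrial rRNAs and mRNAs (left) and the nuclear subunit genes of each complex (right; the axes differ in range); points are samples, dashes with bars are the mean and SD of 4 WT and 3 Ngfr KO samples. The rRNA and mRNA shares and the nuclear shares of complexes IV and V separate the groups, with the widest gap for the rRNAs. The nuclear shares of complexes I, III and IV are low in Ngfr KO replicates 1 and 2 and close to WT in replicate 3. The share of complex II is at WT level or above.

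The shares of reads put the complexes side by side. Nuclear subunit genes of complex I took 1.07% ± 0.07 of reads in WT and 0.80% ± 0.18 in Ngfr KO, those of complex III 0.32% ± 0.02 and 0.24% ± 0.06, and those of complex IV 0.78% ± 0.05 and 0.53% ± 0.17 (SD, n = 4 and 3). Complex V took 0.63% ± 0.01 and 0.55% ± 0.05, and complex II 0.05% ± 0.01 and 0.06% ± 0.01. The summed mitochondrial mRNA value was 1.54, 1.60, 1.60 and 1.37 times that of the nuclear subunit genes in WT and 1.52, 1.21 and 1.35 times in Ngfr KO, so the groups overlapped.

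Transcript size moved with the nuclear result. Across the 75 nuclear subunit genes, the log2 change rose with log2 coding length (Pearson r = 0.80, Spearman rho = 0.77, across genes, which share libraries and are not independent replicates). For single samples against the WT mean, r was 0.82, 0.86 and 0.31 for Ngfr KO replicates 1, 2 and 3. Over 8018 tested genes with a coding sequence the same r was -0.12, -0.13 and -0.24. Over the 1315 of them with a coding sequence under 600 bp, members included, it was 0.23, 0.28 and -0.007. The 55 subunit genes with a coding sequence under 600 bp had a median log2 change of -0.43, and the 20 longer ones 0.34. Over 1252 other tested genes with a coding sequence that short the median was 0.01, and 11.3% were called lower.

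**Figure D4:**
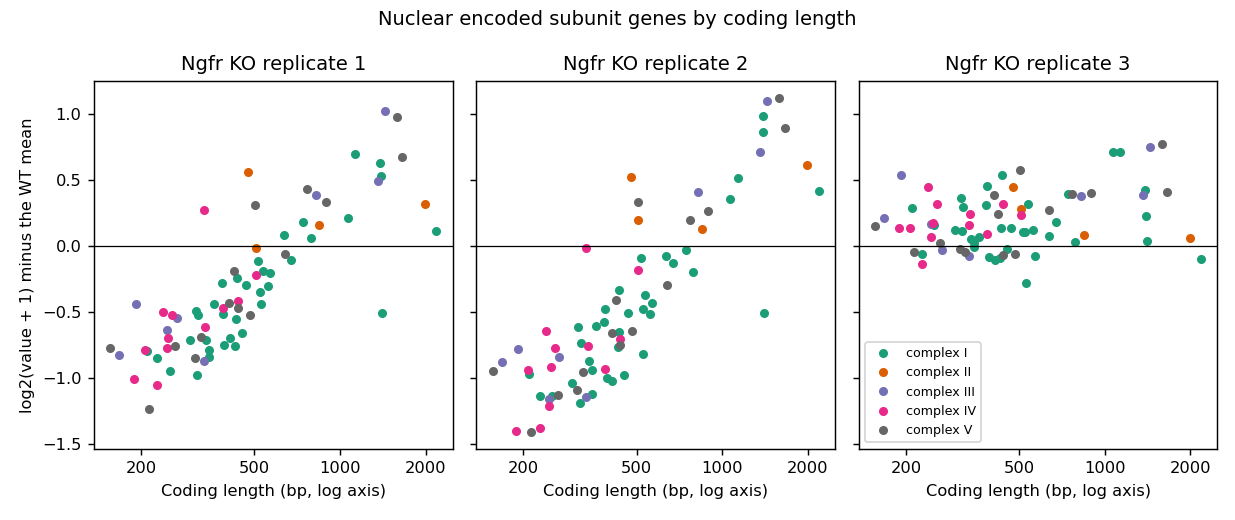
Log2(value + 1) minus the WT mean against coding length (bp, log axis) for the 75 nuclear subunit genes in each Ngfr KO sample, coloured by complex; the line marks the WT mean. Most short genes lie below the line and most long genes above it in replicates 1 and 2 (r = 0.82 and 0.86), and the slope is weaker in replicate 3 (r = 0.31).

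Length of the whole transcript was also compared with that of other genes. Among 195 tested non-members with a transcript under 600 bp, the median log2 change was -0.36, with deviations of -0.55, -0.66 and 0.13 in Ngfr KO replicates 1, 2 and 3, and 25.1% were called lower and 4.62% higher. The 23 subunit genes with transcripts that short had a median of -0.54 and deviations of -0.77, -0.95 and 0.12 in the same samples. Between 1000 and 1999 bp the medians were 0.29 for 2002 non-members, of which 31.7% were called higher, and 0.16 for 22 subunit genes. With each sample's trend with length and GC content removed, 12 subunit genes were called lower and 3 higher, against 12.6% and 18.6% of all genes, and 3 mitochondrially encoded genes lower. The part of transcript length in the differences between the groups was not otherwise tested.

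The 10 assembly and associated factors among the members had a median log2 change of 0.18, with 3 called higher and 0 lower by limma (1 lower at an unadjusted p under 0.05, and 0 by edgeR or DESeq2), against 18.3% and 15.8% of all tested genes. The counts were 2 higher and 1 lower without Ngfr KO replicate 3, 1 higher with length and GC trends removed, and 0 higher and 1 lower with scaling without mitochondrial genes. Ndufaf7, a methyltransferase that acts in assembly of complex I, was at 1.33, 1.85, 1.47 and 1.69 in WT and 3.39, 4.01 and 2.09 in Ngfr KO (log2 change 0.66, SE 0.18, limma adjusted p = 0.015). Atp5s was at 1.79, 2.68, 1.82 and 2.03 in WT and 3.20, 3.95 and 3.31 in Ngfr KO (log2 change 0.55, SE 0.16, limma adjusted p = 0.0189), and the complex I assembly factor Ndufaf1 at 1.54, 2.00, 1.47 and 2.17 in WT and 2.52, 3.05 and 2.90 in Ngfr KO (log2 change 0.46, SE 0.15, limma adjusted p = 0.0354). In all 3, every Ngfr KO sample lay above every WT sample, which held for 22.6% of all tested genes. All 3 were also called higher by edgeR, which called 8.67% of its tested genes higher. Ndufaf2 had a log2 change of -0.46 (limma adjusted p = 0.0523).

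Of 176 other tested genes of the pathway, taken from 6 lists by function, limma called 37 higher and 8 lower. Over all tested genes it called 18.3% higher and 15.8% lower. Scaling to the total without mitochondrial genes gave 13 higher and 21 lower of the 176, where 11.7% and 23.3% of all tested genes were called. Of 18 tested genes of the TCA cycle and pyruvate dehydrogenase, which feed electrons to the chain, 11 were called higher and 0 lower by limma. At an unadjusted p under 0.05 the counts were 13 and 0. Over all tested genes 18.3% were called higher, and the median of the 18 was 0.49. Of 19 tested by edgeR and by DESeq2, 8 and 12 were called higher and 0 lower. These tools called 8.67% and 9.86% of all genes higher. The count called higher was 6 with quantile normalization, 5 with length and GC trends removed and 4 with scaling without mitochondrial genes, with 0 lower by limma in each. In these settings, in the same order, 16.9%, 18.6% and 11.7% of all tested genes were called higher and 17.3%, 12.6% and 23.3% lower. Idh3a, a subunit of the NAD-dependent isocitrate dehydrogenase, was at 2.50, 3.54, 3.50 and 3.47 in WT and 7.66, 9.08 and 5.97 in Ngfr KO (log2 change 1.00, SE 0.18, limma adjusted p = 0.00169). Dld, the shared dihydrolipoamide dehydrogenase, was at 4.64, 4.56, 5.79 and 4.98 in WT and 9.44, 10.3 and 9.23 in Ngfr KO (log2 change 0.83, SE 0.15, limma adjusted p = 0.0021), and Pdhx, which ties it into pyruvate dehydrogenase, at 1.23, 1.66, 1.74 and 1.62 in WT and 3.47, 3.42 and 2.72 in Ngfr KO (log2 change 0.71, SE 0.15, limma adjusted p = 0.00424). In each the groups were apart. Leaving out Ngfr KO replicate 3 gave 12 of the 18 higher and 0 lower, against 16.5% and 17.1% of all tested genes. The transcripts of these 18 genes had a median length of 2525 bp, and 7 lay between 1000 and 1999 bp, the range in which non-members had a median of 0.29; non-members of 2000 bp or more had a median of -0.06.

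Of 78 tested genes of the mitochondrial ribosome, 13 were called higher and 0 lower by limma (22 and 0 at an unadjusted p under 0.05). Over all tested genes limma called 18.3% higher, a share close to that of the 78, and 15.8% lower. By edgeR and DESeq2, 12 and 15 of the 78 were called higher and 0 lower. These tools called 8.67% and 9.86% of all genes higher and 6.55% and 8.99% lower. The largest changes among the 78 genes were Mrps18b (log2 change 0.78, limma adjusted p = 0.0147), Mrps2 (0.66, 0.00896) and Mrps22 (0.63, 0.0318). When Ngfr KO replicate 3 was left out, 8 of the 78 were called higher and 6 lower, against 16.5% and 17.1% of all tested genes. Quantile normalization gave 8 higher and 4 lower, against 16.9% and 17.3%. Scaling without mitochondrial genes gave 3 higher and 6 lower, against 11.7% and 23.3%. The mobile carriers and ubiquinone synthesis genes had 3 of 16 called higher and 0 lower by limma (7 and 1 at an unadjusted p under 0.05). The share called higher was close to the 18.3% over all tested genes, of which 15.8% were called lower. Of 20 tested by edgeR and by DESeq2, 1 and 4 were called higher and 0 lower. These tools called 8.67% and 9.86% of all genes higher. Scaling without mitochondrial genes gave 1 higher and 1 lower of 16, against 11.7% and 23.3% of all tested genes. Etfdh, which passes electrons from fatty acid oxidation to ubiquinone, was at 2.13, 2.38, 2.60 and 1.44 in WT and 4.37, 5.59 and 3.42 in Ngfr KO (log2 change 0.79, SE 0.19, limma adjusted p = 0.0076), Cyc1, cytochrome c1 of complex III, had a log2 change of 0.52 (adjusted p = 0.0416), and Coq4 one of 0.51 (adjusted p = 0.0371).

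Of 34 other assembly factors, 4 were called higher and 2 lower, smaller shares than the 18.3% and 15.8% of all tested genes. Scaling without mitochondrial genes gave 2 higher and 5 lower, where 11.7% and 23.3% of all tested genes were called. Sdhaf1, which helps insert iron-sulphur clusters into Sdhb, was at 1.54, 3.19, 3.77 and 4.05 in WT and 6.82, 10.1 and 9.77 in Ngfr KO (log2 change 1.29, SE 0.24, limma adjusted p = 0.00215), and Tmem70, an ATP synthase assembly factor, at 2.60, 4.33, 6.32 and 4.19 in WT and 9.25, 11.3 and 12.2 in Ngfr KO (log2 change 1.19, SE 0.22, limma adjusted p = 0.00224). Cox19 also rose (log2 change 0.52, limma adjusted p = 0.0492), and Sdhaf4 and the complex III factor Ttc19 fell (-0.50 and -0.43, adjusted p = 0.0292 and 0.0344). Without Ngfr KO replicate 3, 2 were called higher and 5 lower, against 16.5% and 17.1% of all tested genes.

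Genes that copy, transcribe or process mitochondrial DNA and RNA went both ways, with 6 of 20 called higher and 2 lower, against 18.3% and 15.8% of all tested genes. The counts were 4 higher and 4 lower without Ngfr KO replicate 3, against 16.5% and 17.1% of all tested genes. With scaling without mitochondrial genes they were 3 higher and 5 lower, against 11.7% and 23.3%. Fastkd2, an RNA-binding protein needed for the large mitochondrial rRNA, was at 0.802, 1.43, 1.07 and 0.538 in WT and 3.47, 3.94 and 1.58 in Ngfr KO (log2 change 0.99, SE 0.23, limma adjusted p = 0.00705). Tefm, the mitochondrial transcription elongation factor, was at 1.09, 0.999, 0.591 and 1.02 in WT and 1.78, 1.73 and 2.05 in Ngfr KO (log2 change 0.58, SE 0.15, limma adjusted p = 0.012), and Fastk had a log2 change of 0.52 (limma adjusted p = 0.0175). Mterf4, which acts in assembly of the mitochondrial ribosome, fell, with 4.85, 4.75, 4.69 and 3.63 in WT and 2.06, 2.47 and 2.53 in Ngfr KO (log2 change -0.70, SE 0.15, limma adjusted p = 0.00502). Polg, the catalytic subunit of the mitochondrial DNA polymerase, had a log2 change of -0.47 (adjusted p = 0.0439), which became 0.034 with the trend in length and GC content removed.

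Among nuclear regulators of mitochondrial gene expression, 4 of 10 tested were called lower and 0 higher by limma. At an unadjusted p under 0.05 the counts were also 4 and 0. Over all tested genes limma called 15.8% lower and 18.3% higher. Of 16 regulators tested by edgeR and by DESeq2, 2 and 5 were called lower and 0 higher. These tools called 6.55% and 8.99% of all genes lower. Yy1, a zinc finger factor that binds promoters of many respiratory chain genes, was at 6.19, 5.28, 4.94 and 5.47 in WT and 2.96, 2.36 and 2.99 in Ngfr KO (log2 change -0.78, SE 0.15, limma adjusted p = 0.00285). Gabpb2, a partner of the ETS factor GABP, was at 3.46, 3.05, 3.91 and 3.00 in WT and 1.55, 1.95 and 2.03 in Ngfr KO (log2 change -0.61, SE 0.15, limma adjusted p = 0.00889), and Pparg had a log2 change of -0.64 (limma adjusted p = 0.0323). Without Ngfr KO replicate 3, 2 of 10 were called lower, against 17.1% of all tested genes. The median of the 10 was -0.11.

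**Figure D5:**
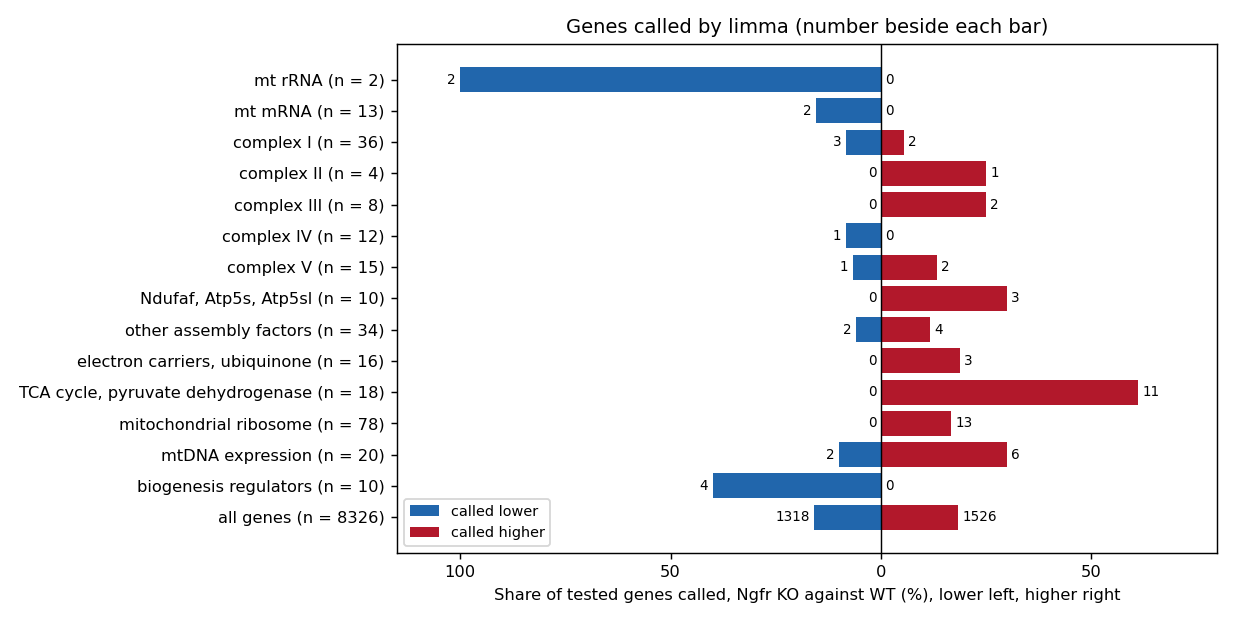
Share of tested genes called by limma in Ngfr KO against WT, lower to the left and higher to the right, for the member groups, the other pathway lists and all genes; the number of genes is beside each bar and the number tested in brackets. The TCA cycle bar reaches 11 of 18 to the right, the rRNA bar 2 of 2 to the left, and all tested genes give 1318 lower and 1526 higher.

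Promoter letters were compared because respiratory chain genes are known targets of NRF1, GABP and YY1. RefSeq promoters (GRCm38.p6, 250 bases before to 50 after the start) were matched by symbol for 76 of the 90 nuclear members, 67 of them subunits. Searched on both strands in 72 windows of these subunits and in all 32851 windows, the NRF1 consensus was in 25.0% and 4.60%, CCGGAAG (ETS factors such as GABP) in 22.2% and 8.86%, and AAGATGGCG (YY1) in 9.72% and 1.40%. No searched motif contains another. Tested subunit genes with and without the NRF1 letters had median log2 changes of -0.32 and -0.32 (17 and 47 genes), those with and without the ETS letters -0.44 and -0.24 (16 and 48), and those with and without the YY1 letters -0.56 and -0.27 (7 and 57). The following 30-base stretches of called genes are printed to show that genes that fell and genes that rose held the same letters, which are in capitals (for Sdhd on the opposite strand, as CTTCCGG); a match is a description and not a binding site.
Ndufa6, which fell, NRF1 letters, chr15:82354249-82354278, minus strand: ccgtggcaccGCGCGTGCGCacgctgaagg
Uqcrc1, which rose, NRF1 letters, chr9:108936643-108936672, plus strand: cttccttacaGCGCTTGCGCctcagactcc
Ndufb7, which fell, ETS letters, chr8:83566727-83566756, plus strand: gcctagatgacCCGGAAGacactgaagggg
Sdhd, which rose, ETS letters, chr9:50603877-50603906, minus strand: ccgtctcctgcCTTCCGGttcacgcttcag
Ndufc1, which fell, YY1 letters, chr3:51408914-51408943, minus strand: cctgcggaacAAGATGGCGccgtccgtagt
Ndufa9, which rose, YY1 letters, chr6:126849096-126849125, minus strand: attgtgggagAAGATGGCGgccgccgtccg
Atp5b, which rose, held none of the 3 in its window; its promoter up to the annotated start (GRCm38.p6 chr10:128083057-128083272, plus strand, 216 bases) is printed in lower case for comparison.
Atp5b: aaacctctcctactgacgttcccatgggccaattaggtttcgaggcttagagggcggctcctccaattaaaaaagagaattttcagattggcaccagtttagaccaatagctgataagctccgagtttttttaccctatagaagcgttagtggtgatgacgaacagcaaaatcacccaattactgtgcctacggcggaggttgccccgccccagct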

How the data were processed

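RNA of 7 sorted samples (4 WT, 3 Ngfr KO) was sequenced. Libraries came from SMART-Seq v4 cDNA and the Nextera XT kit, per the labels' protocols. The submitters' processing notes name bcl2fastq 2.20.0.422 and mm10; the aligner, counting program and annotation are not given in the sources used here. The authors deposited a TMM normalised signal per gene. Dividing each column by its step recovered whole reads for 100% of values within 0.05; amplified reads are not independent molecules, so depth covers counting error only.

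Limma 3.58.1 in R 4.3.3 (lmFit, eBayes with trend, two-sided) was fitted on log2(value + 1) over the 8326 genes that reached a value of 1 in 3 or more samples, without covariates. Adjustment was by Benjamini-Hochberg. edgeR 4.0.16 and DESeq2 1.42.0 were run on the recovered reads. Lengths, coordinates and copies (BLAST, identity of at least 90% over at least 60 bp) came from GENCODE M21 on GRCm38, where 21137 of 21176 identifiers matched; promoters came from RefSeq. The scripts were tested on simulated data, where DESeq2 called more unchanged genes than limma or edgeR. Alternatives were other pseudocounts (0.1, 5), filters, scalings, weights, a replicate block, removal of length and GC trends, and leaving out each sample; length bins, summed copies and edgeR without Ngfr KO replicate 3 were chosen after seeing the data.

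The members and lists were chosen with earlier results of these data known. Genes named by rule were all mitochondrially encoded genes, for each complex up to 4 called genes per direction and the gene highest per kb, the isoform sets, the 4 Sdh genes, and up to 3 called genes per direction of each pathway list; other named genes were chosen after their values were seen. The result of 1 gene is not reported here.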

Additional observations from a re-analysis of the deposited data

Results flagged for a closer look

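In groups of 4 samples, 79 results were checked for a single WT sample far from the other 3 by Dixon's 95% criterion. It marked 8, where chance gives about 4 (3.95). In 7 of the 8 the sample was WT replicate 4, which was low for mt-Nd5 (69.8, others 90.9 to 94.8), mt-Co2 (245.08, others 382 to 387), Ndufa1 (44.1, others 52.3 to 53.1), Cox6c (77.9, others 91.7 to 92.4), Cox6a1 (55.6, others 64.1 to 64.6), Cox7a2 (31.5, others 34.6 to 34.9) and the share of reads from mt-Rnr2 (1.53%, others 1.87% to 1.93%). These results share a library and are not independent. The other was Ndufa4l2, at 0.0506 in WT replicate 1 and at most 0.00749 in the other WT samples.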

How the results depend on the processing

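The counts of 4 mitochondrial genes lower, 5 nuclear subunit genes lower, 7 higher, 45 listed pathway genes and 2844 genes in all depended on the processing. Mitochondrial genes lower were 1 with no filter, 9 with quantile normalization, 8 with scaling to the total without mitochondrial genes, 10 with array weights, 2 by edgeR, and 1 to 10 when single samples were left out. Nuclear subunit genes lower were 0 with no filter, 26, 3 and 34 with quantile, median ratio and non-mitochondrial scaling, 9 with robust eBayes, 44 with array weights, 12 with length and GC trends removed, 1 by edgeR, 25 by edgeR without Ngfr KO replicate 3, 2 by DESeq2, and 0 to 43 with single samples left out. Nuclear subunit genes higher were 3 with no filter, quantile normalization, non-mitochondrial scaling or trends removed (with or without the replicate block), 14 with array weights, 4 by edgeR without Ngfr KO replicate 3, and 1 to 9 with single samples left out. Pathway genes were 22 with no filter, 4 with the strict filter, 102 with array weights, 26 with trends removed and the block, and 17 to 53 with single samples left out. All genes called were 535 with the strict filter (1297 genes tested), 4881 with array weights, and 1614 to 3006 with single samples left out. The strict filter tests fewer genes; for the rest the cause was not tested.

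Small changes turned sign: with trends removed, mt-Nd1 0.026, mt-Nd4l 0.16 (0.19 with the block), mt-Cytb 0.021, mt-Atp8 0.29 (0.25), Sdhb -0.013 (-0.19) and Polg 0.034 (0.069). With median ratio scaling mt-Cytb was 0.037 and Cox4i1 0.011. By edgeR and DESeq2 mt-Cytb was 0.036 and 0.035 and Cox4i1 0.018 and 0.019. Sdhb was -0.017 with quantile normalization and -0.047 with non-mitochondrial scaling, which put Cox7a2l at -0.034, and Sdhc was -0.037 with array weights. With single samples left out, mt-Nd1 ranged from -0.25 to 0.12, mt-Cytb from -0.17 to 0.16, Cox4i1 from -0.20 to 0.026, Atp5g3 from -0.30 to 0.025 and Sdhb from -0.032 to 0.20. Uqcrc1 and mt-Nd6 were called in 22 of 22 alternatives.

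Same-numbered samples did not pair (correlation of deviations 0.30, -0.06 and -0.01), and 1 of the 3 Ngfr KO samples correlated best with the WT sample of its own number. With the replicate block 4 mitochondrial genes were lower, 5 nuclear subunit genes lower and 5 higher, 33 pathway genes were called, and 2717 of all genes; Sdhb was at -0.032. The 3 Ngfr KO libraries all held more reads than the 4 WT libraries, so depth and genotype cannot be told apart, and genes under a value of 1 were not tested by limma.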
